A study of Mus musculus with 6 samples.

Results

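Bone morphogenetic proteins (BMPs) and transforming growth factor-β (TGF-β) belong to 1 family of secreted ligands, and the mRNAs of these ligands, their receptors and their Smad effectors were described here in astrocytes of the upper and deep layers of the mouse neocortex. Members were the rows of the expression table whose symbol belongs to the Bmp, Bmpr, Gdf, Acvr, Smad, Tgfb, Tgfbr, Inhb, Ltbp or Smurf series, or is Eng, Bambi, Rgma, Rgmb, Msx1, Msx2 or Atoh8. This gave 61 members of 43383 rows. No expression value was a criterion, but the series and symbols were chosen with earlier results of these data known. The mice were males of the Aldh1l1-eGFP line at 4 weeks of age, in which regulatory sequences of Aldh1l1, a folate enzyme gene of astrocytes, drive GFP. Upper-layer astrocytes (ULAs) were GFP-positive cells sorted from layers II–IV of the somatosensory cortex and deep-layer astrocytes (DLAs) the same cells from layers V and VI, with meninges, layer I, the corpus callosum and the border between layers IV and V left out of the dissection. All 6 libraries carried the transgene, and each of 3 brains gave 1 ULA and 1 DLA library. The question was which of these genes differ between the layers.

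In this family a dimeric ligand brings together type I and type II receptor kinases at the cell surface, and the type I receptor then phosphorylates receptor Smads, which enter the nucleus with Smad4. BMPs and several growth and differentiation factors (GDFs) act mainly through Smad1, Smad5 and Smad9, and TGF-βs and activins mainly through Smad2 and Smad3. Secreted antagonists and inhibitory Smads restrain the pathway, and its target genes include the Id genes and Msx1, Msx2 and Atoh8. BMP signaling promotes the formation of astrocytes from neural progenitors, and TGF-β family ligands made by astrocytes are known to act on synapses and on neighboring glia and vessels.

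Promoter sequence was read for the 3 target transcription factors, because the values of all 3 separated the layers without overlap, and for Smad9, a weakly expressed receptor Smad whose values did so too. The 250 bases before the start of each gene are shown 5′ to 3′ on the gene's strand, from RefSeq on GRCm38.p6, with a GGCGCC match in capitals. These windows lie on the minus strand at chr5:37824586-37824835 for Msx1, chr13:53472781-53473030 for Msx2 and chr6:72235578-72235827 for Atoh8, and on the plus strand at chr3:54755332-54755581 for Smad9.
Msx1: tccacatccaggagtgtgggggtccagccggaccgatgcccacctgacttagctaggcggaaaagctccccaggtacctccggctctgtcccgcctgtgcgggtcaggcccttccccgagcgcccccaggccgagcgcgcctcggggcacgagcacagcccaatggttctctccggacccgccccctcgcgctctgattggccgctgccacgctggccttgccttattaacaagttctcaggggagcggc
Msx2: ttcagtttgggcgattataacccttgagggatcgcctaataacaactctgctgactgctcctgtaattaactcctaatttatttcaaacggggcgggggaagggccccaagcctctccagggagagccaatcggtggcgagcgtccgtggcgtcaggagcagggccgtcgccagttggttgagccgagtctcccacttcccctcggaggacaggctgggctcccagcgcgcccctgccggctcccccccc
Atoh8: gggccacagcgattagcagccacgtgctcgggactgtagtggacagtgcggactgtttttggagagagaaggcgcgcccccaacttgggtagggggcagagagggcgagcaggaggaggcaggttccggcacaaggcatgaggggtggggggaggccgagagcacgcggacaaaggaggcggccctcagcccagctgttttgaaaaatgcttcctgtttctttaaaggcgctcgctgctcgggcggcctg
Smad9: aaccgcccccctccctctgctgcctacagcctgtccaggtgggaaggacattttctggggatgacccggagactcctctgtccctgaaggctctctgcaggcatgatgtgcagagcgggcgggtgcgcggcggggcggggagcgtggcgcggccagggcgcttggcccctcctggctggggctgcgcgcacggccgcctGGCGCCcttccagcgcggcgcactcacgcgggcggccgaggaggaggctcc
GGCGCC, a sequence recognized by Smad1 and Smad5, was searched on both strands together with GTCTAGAC and CAGACA, both known from Smad3 and Smad4 binding. None of these strings contains another. The windows of Msx1, Msx2 and Atoh8 held none of the 3 letter strings, and that of Smad9 held 1 GGCGCC. Promoter windows were found for 45 of the 61 members (58 windows). GGCGCC occurred in 10 of the 58 (17.2%) and in 9.6% of all 32851 windows, CAGACA in 8 (13.8%) against 17.1%, and GTCTAGAC in 0 against 0.2%. A match describes letters in this window and is not a binding site.

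Expression was measured by RNA-seq and deposited as RPKM (reads per kilobase of mRNA length, scaled to the depth of the library), so that levels can be compared between genes. Sequencing depth, recovered from the smallest increments between RPKM values, was 24.4 to 26.7 M reads in ULAs and 19.7 to 29.6 M reads in DLAs. Aldh1l1 itself was at 203.27 to 242.63 RPKM in ULAs and 223.95 to 271.06 RPKM in DLAs, and the 10 astrocyte markers summed to between 9811 and 11474 RPKM in every library, most of it Aldoc, Slc1a3 and Gja1. Of these 10 markers, Gfap was called higher in DLAs (10.37 to 12.49 RPKM in ULAs against 17.77 to 28.82 in DLAs) and 0 were called higher in ULAs, although Slc1a3 and Fgfr3 came near the threshold in that direction (adjusted p = 0.0554 and 0.057 by limma). Oligodendrocyte markers were higher in DLAs (6 of 8 called, summed level 86.95 to 178.19 RPKM in ULAs against 177.08 to 278.99 in DLAs), as were erythrocyte genes (3 of 4 tested, 0.94 to 1.79 against 15.35 to 76.72 RPKM). Of the 3, Hbb-b1 and Hbb-b2 span nearly the same bases and had equal reads in each library (0 in ULAs, 32, 29 and 281 in DLAs). These 2 rows cannot be told apart, and both entered the sum. Endothelial markers summed to at most 2.64 RPKM, with Kdr, Cdh5 and Vwf at 0.05 or below, and precursor markers of oligodendrocytes to at most 1.31 RPKM. Microglial markers summed to between 13.95 and 14.86 RPKM in ULAs and between 9.09 and 12.25 in DLAs, most of it P2ry12, the 1 marker tested (not called), and neuronal markers to between 4.90 and 7.29 RPKM. The pericyte and smooth muscle list summed to between 12.01 and 23.14 RPKM, most of it Pdgfrb. Rgs5 of that list was called higher in ULAs (1 of 2 tested), and Kcnj8 and Abcc9 were at 0.02 RPKM or below. Meningeal fibroblast markers summed to between 3.13 and 4.15 RPKM in ULAs and between 4.98 and 6.29 in DLAs, mostly Col1a1, with Dcn, Lum and Col3a1 at 0.09 or below. The part of these other cells in the member values below was not tested, and fewer cells of a type cannot be told apart from less RNA per cell in these pooled sorts.

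Astrocytes of both layers expressed part of the family. Of the 61 members, 10 had a mean of at least 10 RPKM, 20 lay between 1 and 10, 15 between 0.1 and 1 and 13 below 0.1, and 3 (Bmp10, Gdf2 and Gdf3) were listed at 0 in every library. A count of 0 still allows 3 reads, which is up to 0.116 RPKM for Bmp10, 0.0511 for Gdf2 and 0.0724 for Gdf3. The members best expressed were a ligand row (Gdf1), Bmp7, the type I receptors Bmpr1b and Bmpr1a, the protease gene Bmp1, the co-receptor Rgma, Smad1, the latent TGF-β binding proteins Ltbp4 and Ltbp1, and Tgfb2. The plot of levels by role shows how each layer and brain contributed.

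**Figure D1:**
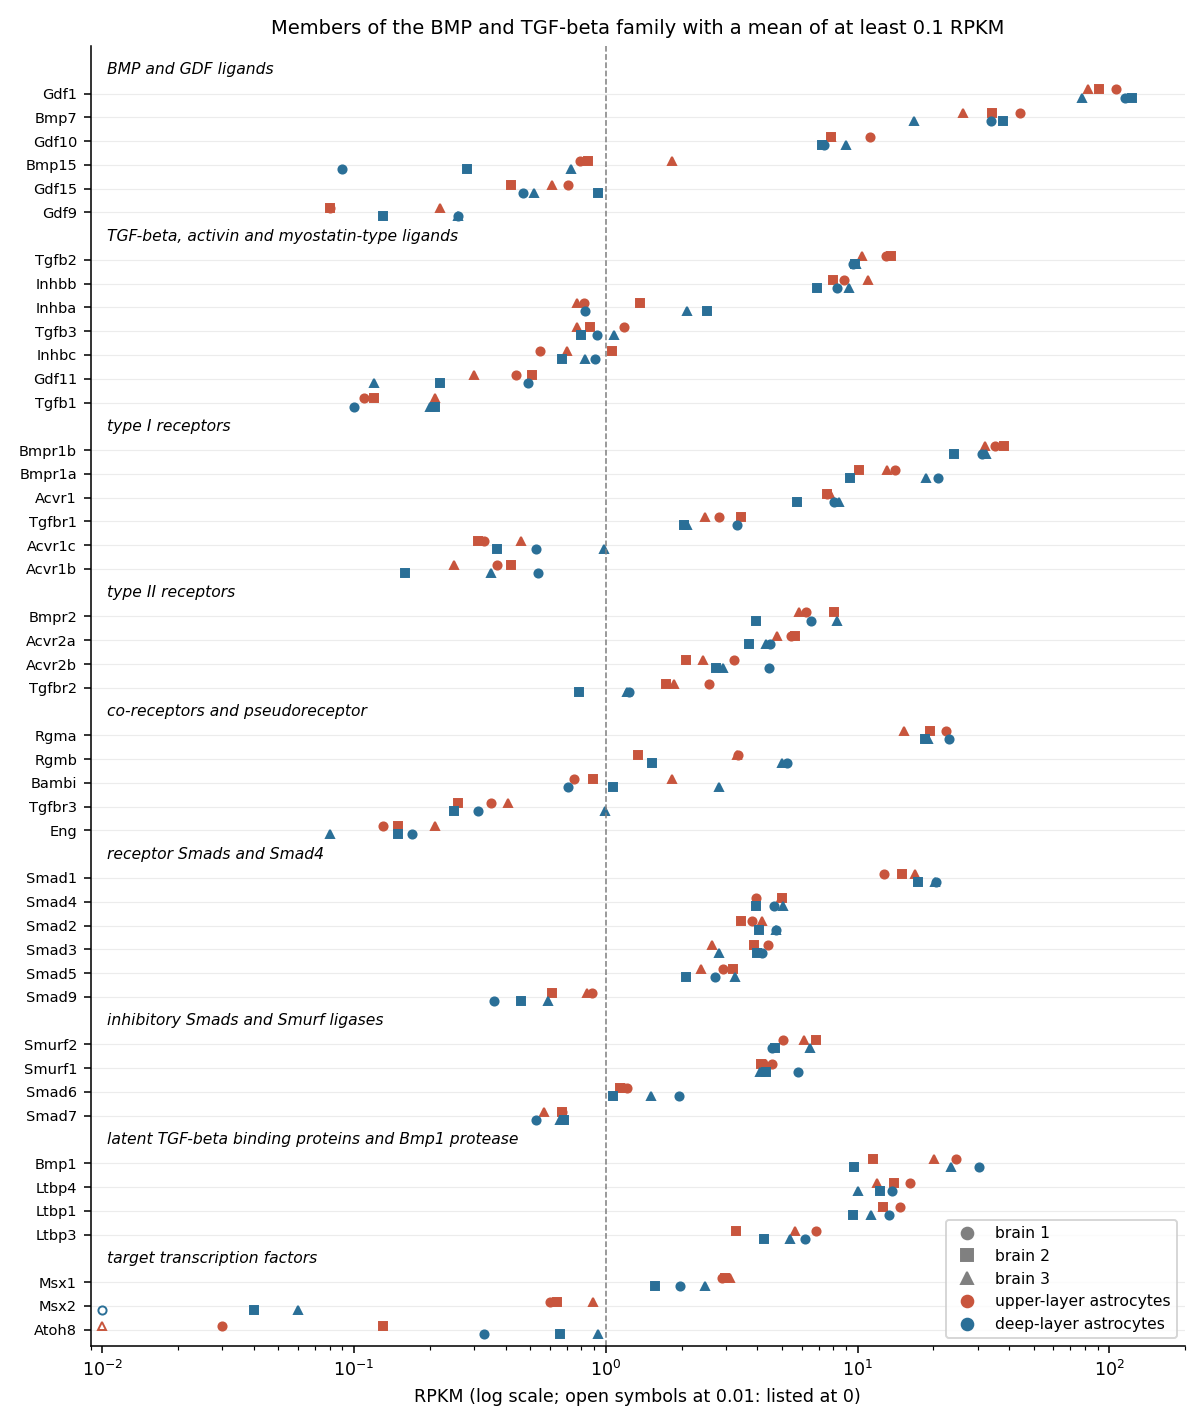
RPKM on a log axis of the 45 members with a mean of at least 0.1 RPKM, grouped by role and ordered by mean within a role. Red marks are ULAs and blue marks DLAs, the marker shape gives the brain, the dashed line marks 1 RPKM, and open marks at the left edge are values listed at 0. For most members the red and blue marks intermingle, whereas those of Msx2 and Atoh8 lie apart in opposite directions.

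The 30 members with a mean of at least 1 RPKM were compared between the layers with limma on log2(RPKM + 1), with brain as a block, among 13999 rows. None of the 30 passed at an adjusted p under 0.05 in either direction, where 1.63% of all rows did (100 rows or 0.714% with more mRNA in ULAs and 128 or 0.914% with more in DLAs, which became 138 and 103 after quantile normalization). An unadjusted p under 0.05 was reached by 3 members higher in ULAs (Tgfbr2, Tgfb2 and Msx1), where the background was 5.64% of rows, and 3 higher in DLAs (Smad1, Inhba and Rgmb), where it was 10.8%. Estimates were positive, that is, higher in ULAs, for 16 members and negative for 14, with a median of 0.04 against −0.03 over all rows. This lean was not stable, since the median of the members was −0.04 after a correction for mRNA length (14 of 30 positive) and −0.05 without brain 2 (12 positive). They ranged from −0.46 for Inhba to 0.55 for Tgfbr2, and 29 of 30 (96.7%) were smaller than 0.5 in size, as were 95.9% of all rows. The precision was such that every one of the 30 intervals at 95% lay within 1 log2 unit of 0, with a median SE of 0.141. So did the intervals of 13618 of the 13999 rows. A layer difference of 2-fold on this scale was thus outside the interval of each tested member, and smaller ones were not excluded. This scale understates the change of low rows. At a minimum of 0.1 RPKM and a pseudocount of 0.1, the difference was 0.87 (SE 0.23) for Tgfbr2 and −0.73 (SE 0.30) for Inhba. A 2-fold difference in RPKM was thus not excluded for these 2 members.

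**Figure D2:**
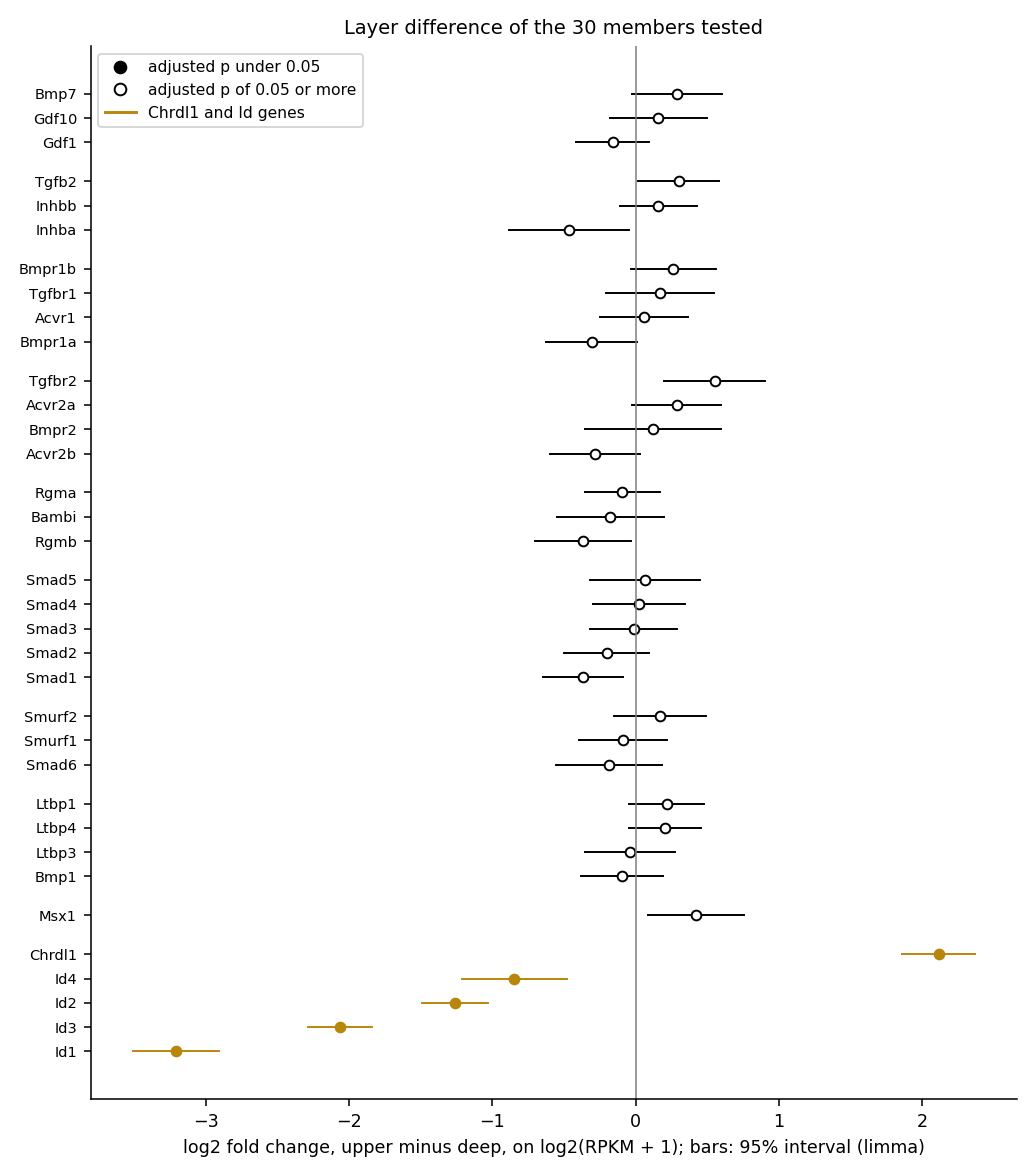
Log2 fold change between ULAs and DLAs on log2(RPKM + 1), with 95% intervals from limma (3 brains, brain as a block), for the 30 members tested, in black by role, and for Chrdl1 and 4 Id genes in gold. Positive values are higher in ULAs. Every black point is open (adjusted p of 0.05 or more) and lies between −0.46 and 0.55, and the 5 gold points are filled.

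The range of the 3 brain means was larger than the layer difference for 23 of 30 members (76.7%), a share near that of all rows tested (71.4%). Bmp1, a protease that cleaves procollagens and the BMP antagonist chordin, had the widest brain range of the 30. Its level was 24.68, 11.47 and 20.15 RPKM in the ULAs and 30.35, 9.68 and 23.57 RPKM in the DLAs of brains 1, 2 and 3. Brain 2 was low in both layers, and the brain means spanned 1.30 log2 units against a layer difference of −0.09 (SE 0.13). Rgmb, a BMP co-receptor, had the same brain pattern, with 3.36, 1.34 and 3.32 RPKM in ULAs and 5.27, 1.52 and 5.02 RPKM in DLAs. DLAs were higher in all 3 brains, but the groups overlapped, and the difference of −0.37 (SE 0.15, adjusted p = 0.261 by limma) was smaller than the brain range of 1.11. Both genes were low in the ULA and the DLA library of brain 2, of which only the DLA library was also the shallowest.

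**Figure D3:**
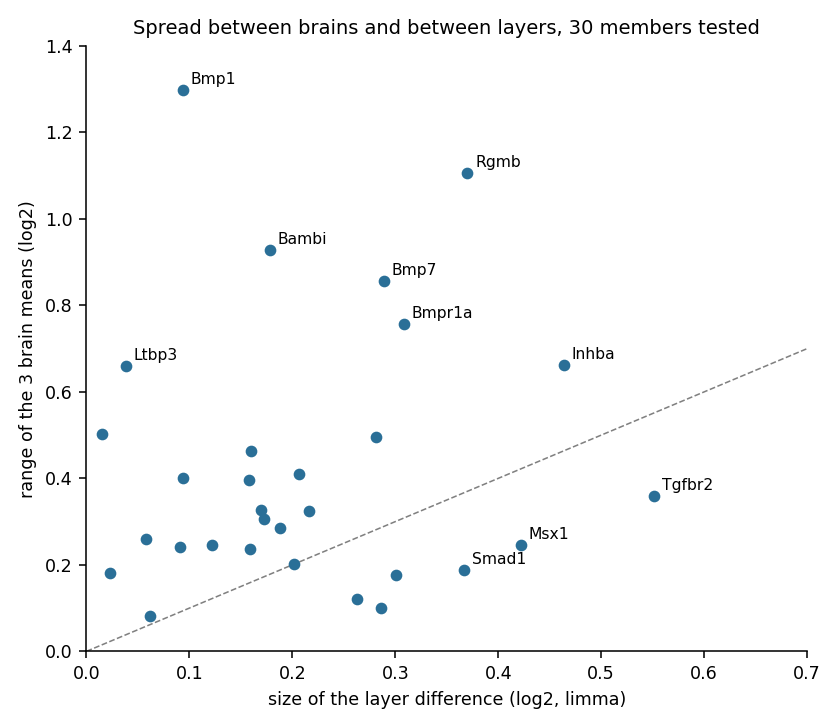
Range of the 3 brain means (log2, vertical axis) against the size of the layer difference (log2, horizontal axis) for the 30 members tested, each point 1 member. The dashed line marks equal size, and 23 points lie above it, with Bmp1 and Rgmb highest and Tgfbr2 farthest to the right.

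Of the 19 BMP and GDF ligands, 3 passed the minimum of 1 RPKM. This grouping is mostly by name, with Gdf11 placed among the TGF-β and activin-type ligands instead. Of those kept here, Gdf1, Gdf3 and Gdf9 are known to act through Smad2 and Smad3. The row of Gdf1 was the highest of all members, with 106.40, 90.63 and 82.51 RPKM in ULAs and 115.80, 123.43 and 77.91 RPKM in DLAs. This row shares 2724 of its 2728 exon bases, on the same strand, with that of Lass1, a ceramide synthase gene, which stood at 106.55, 90.75 and 82.63 RPKM in ULAs and 115.97, 123.59 and 78.03 RPKM in DLAs. Reads of the 2 genes cannot be told apart, so the level of Gdf1 mRNA alone is unknown here. Bmp7, a ligand that acts through the BMP type I receptors, was then the most abundant ligand, at 44.34, 34.34 and 26.26 RPKM in ULAs and 33.91, 37.72 and 16.73 RPKM in DLAs. The groups overlapped, brain 3 was lowest in both layers, and the difference was 0.29 (95% interval −0.03 to 0.60, adjusted p = 0.346 by limma). It was 0.12 without brain 3 and 0.50 without brain 2. An opposite-strand row covers 32.5% of the Bmp7 exon bases, and it stood at 1.90 to 4.49 RPKM.

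Gdf10, a GDF related to Bmp3, was at 11.19, 7.86 and 7.85 RPKM in ULAs and 7.33, 7.25 and 8.99 RPKM in DLAs, and did not separate the layers (0.16, adjusted p = 0.645). The classical BMP ligand genes Bmp2, Bmp4, Bmp5 and Bmp6 were at 0.25 RPKM or below in every library. Bmp15, known as an oocyte ligand, was the only BMP or GDF ligand with at least 0.1 RPKM whose layers did not overlap, and it was singled out after its values were seen. It was at 0.79, 0.85 and 1.83 RPKM in ULAs and 0.09, 0.28 and 0.73 RPKM in DLAs, or 60, 67 and 150 reads against 8, 17 and 67. Brain 3 was highest in both layers, and the lowest ULA value exceeded the highest DLA value by little (0.79 against 0.73 RPKM). Tested together with all rows of at least 0.1 RPKM at a pseudocount of 0.1, its difference was 1.59 (SE 0.34) with an adjusted p of 0.143. With no minimum and a pseudocount of 1, the difference was 0.65 and the adjusted p 0.339 by limma.

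Of the 8 TGF-β and activin-type ligands, 3 were tested. Tgfb2, which encodes TGF-β2, was at 12.95, 13.62 and 10.39 RPKM in ULAs and 9.57, 9.81 and 9.88 RPKM in DLAs. All 3 ULA values lay above all 3 DLA values, with little between them in brain 3. The difference was 0.30 (SE 0.13, 95% interval 0.02 to 0.58) and the adjusted p 0.275. The other TGF-β ligands were weak, Tgfb3 at 0.77 to 1.18 RPKM and Tgfb1 at 0.10 to 0.21 RPKM, so that Tgfb2 was the leading TGF-β isoform in each library without overlap. Tgfb2 lies at chr1:188447065-188529871 (mm9).

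The activin subunit gene Inhbb was at 8.81, 7.96 and 10.97 RPKM in ULAs and 8.32, 6.92 and 9.26 RPKM in DLAs. Each brain had more in its ULAs, but the groups overlapped (0.16, SE 0.12, adjusted p = 0.546). Inhba, the other activin subunit gene above the minimum, was named after its values were seen. It was at 0.82, 1.37 and 0.77 RPKM in ULAs and 0.83, 2.52 and 2.11 RPKM in DLAs, and thus nearly equal in brain 1 and higher in DLAs in brains 2 and 3 (−0.46, SE 0.19, adjusted p = 0.26). The sum of Bmp7, Tgfb2, Inhbb and Gdf10 was 65.51 ± 11.0 RPKM in ULAs and 55.23 ± 9.07 RPKM in DLAs (SD, n = 3). The ULA sum was the larger in each brain, by little in brain 2 (63.78 against 61.7 RPKM), and the groups overlapped.

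The receptors came mostly from the BMP branch. Of the 7 type I receptors 4 were tested, and Bmpr1b, Bmpr1a and Acvr1, which bind BMPs and related ligands, held most of the mRNA. Bmpr1b stood at 35.24, 38.10 and 31.96 RPKM in ULAs and 31.11, 24.17 and 32.46 RPKM in DLAs (0.26, 95% interval −0.03 to 0.56, adjusted p = 0.359). Bmpr1a stood at 14.05, 10.11 and 13.08 RPKM in ULAs and 20.84, 9.36 and 18.75 RPKM in DLAs (−0.31, 95% interval −0.63 to 0.01, adjusted p = 0.323). The 2 genes thus leaned in opposite directions, and neither passed the test. Without brain 2 the difference of Bmpr1b shrank to 0.08 and that of Bmpr1a was −0.51. Acvr1 was lower again, at 5.73 to 8.42 RPKM. Over the 6 libraries the ranges of Bmpr1b, Bmpr1a and Acvr1 did not overlap, so that their order was the same in both layers.

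The ratio of Bmpr1b to Bmpr1a, formed after the values were seen, was 2.51, 3.77 and 2.44 in ULAs and 1.49, 2.58 and 1.73 in DLAs. Within each brain the ratio was higher in ULAs, by 0.75, 0.55 and 0.50 log2 units, although the groups overlapped because brain 2 was high in both layers. Because it was formed after the values were seen, the ratio is a description with no test. The sum of Bmpr1a, Bmpr1b and Acvr1 was 55.17 ± 2.08 RPKM in ULAs and 52.97 ± 11.9 RPKM in DLAs (SD, n = 3), and it was lower in the ULAs of brains 1 and 3 and higher in those of brain 2. An opposite-strand row that shares 2.8% of the Bmpr1a exon bases moved with Bmpr1a, at 0.66, 0.53 and 0.85 RPKM in ULAs and 4.44, 0.61 and 4.13 RPKM in DLAs. The counting is not stated to use strand, so its reads and those of Bmpr1a cannot be told apart in the shared bases. Bmpr1b lies at chr3:141500100-141645215 and Bmpr1a at chr14:35224254-35315732 (mm9).

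**Figure D4:**
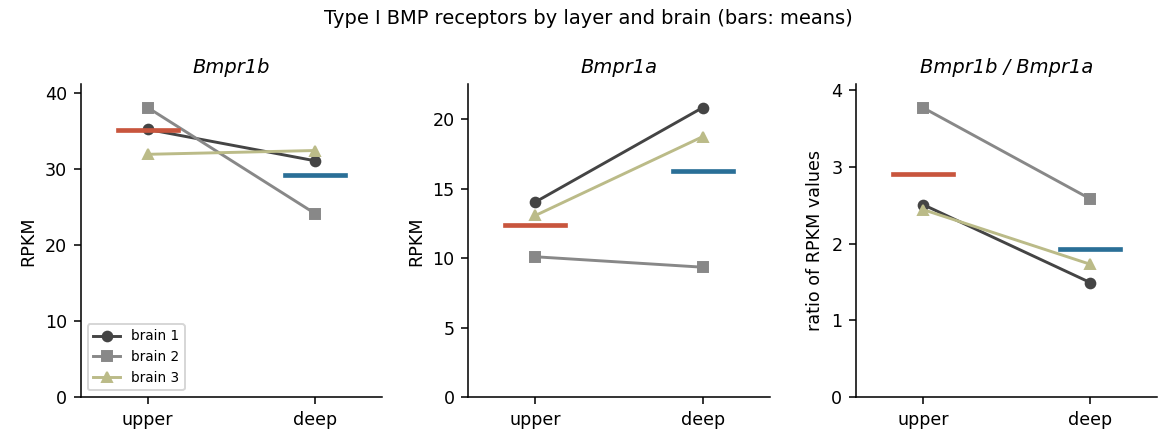
RPKM of Bmpr1b and of Bmpr1a and their ratio in ULAs (upper) and DLAs (deep), with lines joining the libraries of 1 brain and bars at the group means (n = 3). The ratio lies higher in the upper library of all 3 brains, at 2.51 against 1.49, 3.77 against 2.58 and 2.44 against 1.73.

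Tgfbr1, the type I receptor for TGF-β, was expressed at 2.04 to 3.43 RPKM and did not pass (0.17, adjusted p = 0.657). Acvr1b and Acvr1c, type I receptors for activin-type ligands, were at 0.16 to 0.98 RPKM, and Acvrl1, known from endothelial cells, at 0.03 RPKM or below.

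All 4 type II receptors were tested. Tgfbr2, the type II receptor that binds TGF-β, showed the largest estimate among the 30 members tested. Its level was 2.57, 1.73 and 1.86 RPKM in ULAs (301, 213 and 238 reads) and 1.24, 0.78 and 1.22 RPKM in DLAs (158, 74 and 173 reads). Every ULA value exceeded every DLA value. The difference was 0.55 (SE 0.16, 95% interval 0.20 to 0.90) and the adjusted p 0.127 by limma, which misses the threshold. At a pseudocount of 0.1 the difference was larger, at 0.87, and the adjusted p was 0.145. With brain 3 left out, Tgfbr2 passed with an adjusted p of 0.05 as rounded, and over all alternatives that p ran from 0.05 to 0.641. The Tgfbr2 row lies at chr9:115996813-116084481 (mm9). Tgfbr1 and Tgfbr2 together were at 4.96 ± 0.554 RPKM in ULAs and 3.57 ± 0.90 RPKM in DLAs (SD, n = 3), with the ULA sum larger in each brain and the groups overlapping.

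Bmpr2, the type II receptor for BMPs, was the most abundant of the type II receptors at 6.22, 8.06 and 5.83 RPKM in ULAs and 6.53, 3.97 and 8.27 RPKM in DLAs. Its brains disagreed in direction, and the interval was wide for this list (0.12, 95% interval −0.35 to 0.60). Acvr2a, which serves activins and BMPs, was at 5.45, 5.66 and 4.80 RPKM in ULAs and 4.50, 3.70 and 4.32 RPKM in DLAs. The ULA value was the larger in each brain, without overlap (0.29, SE 0.14, adjusted p = 0.342). Acvr2b, its relative, leaned the other way at 2.08 to 3.22 RPKM in ULAs and 2.75 to 4.44 RPKM in DLAs (−0.28, adjusted p = 0.355). Over the 6 libraries, the range of each type II receptor overlapped that of the next in the order Bmpr2, Acvr2a, Acvr2b and Tgfbr2.

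Among the co-receptors, Rgma, which binds BMPs and neogenin, was at 22.55, 19.33 and 15.27 RPKM in ULAs and 23.18, 18.49 and 19.10 RPKM in DLAs. It did not differ detectably between layers (−0.09, 95% interval −0.35 to 0.17). Bambi, a pseudoreceptor that lacks a kinase domain, was at 0.75 to 1.83 RPKM in ULAs and 0.71 to 2.83 RPKM in DLAs (−0.18, adjusted p = 0.639), with brain 3 highest in both layers. The TGF-β co-receptors Tgfbr3 (betaglycan) and Eng (endoglin) stayed below 1 RPKM, at 0.25 to 0.99 and 0.08 to 0.21 RPKM.

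The receptor Smads and Smad4 were expressed in both layers, and 5 of the 6 were tested. Smad1, a receptor Smad of the BMP branch, was at 12.73, 14.96 and 16.93 RPKM in ULAs and 20.48, 17.42 and 20.28 RPKM in DLAs. It was the only one of the 30 tested members whose DLA values all lay above its ULA values, where 9.27% of tested rows did so. The difference was −0.37 (SE 0.12, 95% interval −0.65 to −0.09) with an adjusted p of 0.192. Its smallest gap between layers was in brain 2, and its row lies at chr8:81862298-81923367 (mm9). Smad5, in contrast, was at 2.09 to 3.27 RPKM with overlapping groups.

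Smad9, named after its values were seen, was the weakest receptor Smad at 0.88, 0.61 and 0.84 RPKM in ULAs and 0.36, 0.46 and 0.59 RPKM in DLAs. It leaned opposite to Smad1, with all ULA values above all DLA values, by a narrow margin (0.61 against 0.59 RPKM). In the fit over rows of at least 0.1 RPKM its difference was 0.63 (SE 0.31) and its adjusted p 0.437. Smad1, Smad5 and Smad9 together summed to 16.52, 18.77 and 20.17 RPKM in ULAs and 23.56, 19.97 and 24.14 RPKM in DLAs, of which Smad1 was the larger part in every library. The DLA sum was the larger in each brain, and the groups overlapped by little (20.17 against 19.97 RPKM).

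Smad2 and Smad3, the receptor Smads of the TGF-β branch, were at 3.43 to 4.75 and 2.65 to 4.40 RPKM, with differences of −0.20 and −0.01. Their sum was 7.45 ± 0.714 RPKM in ULAs and 8.20 ± 0.689 RPKM in DLAs (SD, n = 3). The DLA sum was the larger in each brain, and the groups overlapped. Smad4, the common partner of both branches, was at 3.97, 5.02 and 4.96 RPKM in ULAs and 4.67, 3.94 and 5.07 RPKM in DLAs. Its difference of 0.02 had a 95% interval of −0.30 to 0.34.

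The inhibitors within the cell were also similar. Smurf2, a ubiquitin ligase that acts on receptors and Smads, was at 5.05, 6.85 and 6.12 RPKM in ULAs and 4.59, 4.69 and 6.47 RPKM in DLAs (0.17, adjusted p = 0.599). Smurf1, its relative, was at 4.58, 4.15 and 4.32 RPKM in ULAs and 5.80, 4.32 and 4.10 RPKM in DLAs (−0.09, adjusted p = 0.792). Smad6 and Smad7, the inhibitory Smads and themselves known targets of the pathway, were weak. Smad6 was at 1.14 to 1.22 RPKM in ULAs and 1.07 to 1.96 RPKM in DLAs (−0.19, adjusted p = 0.612), and Smad7 at 0.53 to 0.68 RPKM over all libraries.

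The latent TGF-β binding proteins tether inactive TGF-β to the extracellular matrix. Ltbp4 was at 16.11, 13.93 and 11.97 RPKM in ULAs and 13.73, 12.29 and 10.02 RPKM in DLAs. Ltbp1 was at 14.80, 12.61 and 12.58 RPKM in ULAs and 13.28, 9.58 and 11.34 RPKM in DLAs. Each was higher in ULAs in all 3 brains with overlapping groups, by 0.21 and 0.22, and both had an adjusted p of 0.393. A correction for mRNA length reduced both differences to 0.09 and 0.08. Ltbp3 was at 3.28 to 6.84 RPKM with no layer difference detected (−0.04), and Ltbp2 at 0.04 RPKM or below.

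All 3 target transcription factors separated the layers without overlap, at low levels, and none passed at an adjusted p under 0.05. Msx1, a homeobox factor, was at 2.90, 2.98 and 3.13 RPKM in ULAs and 1.98, 1.57 and 2.48 RPKM in DLAs. All ULA values exceeded all DLA values (0.42, SE 0.15, 95% interval 0.09 to 0.76, adjusted p = 0.21). The opposite-strand gene Msx1as shares 58.9% of the Msx1 exon bases and ran in parallel, at 2.03, 2.20 and 2.37 RPKM in ULAs and 1.30, 1.16 and 1.97 RPKM in DLAs. The counting is not stated to use strand, so the 2 genes cannot be told apart in the shared part.

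Msx2, the paralog of Msx1, was at 0.60, 0.64 and 0.89 RPKM in ULAs and at 0, 0.04 and 0.06 RPKM in DLAs. These values rest on 32, 36 and 52 reads in ULAs and on 0, 2 and 4 reads in DLAs. The 0 in the DLAs of brain 1 allows up to 0.0522 RPKM (3 reads), which is below each ULA value. Msx2 was under the minimum of the main test. In the fit over rows of at least 0.1 RPKM, chosen after the values were seen, the difference was 2.61 (SE 0.39) with an adjusted p of 0.0555. With no minimum and a pseudocount of 1, the difference was 0.72 and the adjusted p 0.285 by limma.

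Atoh8, a basic helix-loop-helix factor, went the other way and was singled out after its values were seen. It was at 0.03, 0.13 and 0 RPKM in ULAs (2, 8 and 0 reads) and 0.33, 0.66 and 0.93 RPKM in DLAs (21, 31 and 65 reads). The 0 in the ULAs of brain 3 allows up to 0.0477 RPKM (3 reads), and DLAs were higher in each brain. The difference was −2.27 (SE 0.49) and the adjusted p 0.145 in the same fit over rows of at least 0.1 RPKM. With no minimum and a pseudocount of 1, the difference was −0.62 and the adjusted p 0.406 by limma. The promoter windows shown above for Msx2 and Atoh8 held none of the 3 searched strings. GGCGCC, GTCTAGAC and CAGACA occurred in only 9.6%, 0.2% and 17.1% of all windows, so this absence is common. On mm9 the Msx2 row is at chr13:53562250-53568149, that of Atoh8 at chr6:72156172-72185571 and that of Msx1 at chr5:38211730-38215824. The limits of 3 reads for a count of 0 cover counting error only. The intervals from limma rest instead on the residual variation among the libraries.

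**Figure D5:**
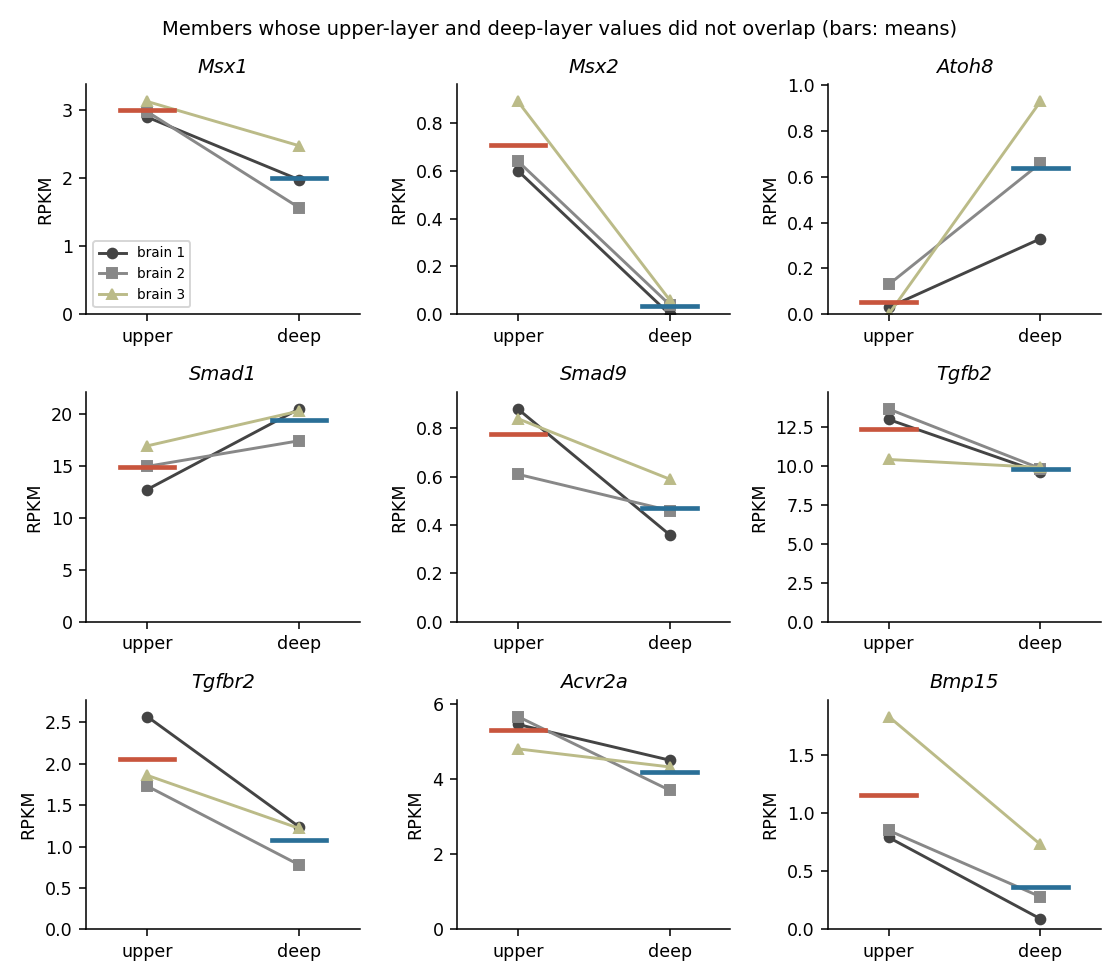
RPKM in ULAs (upper) and DLAs (deep) of the 9 members with at least 0.1 RPKM whose groups did not overlap, with lines joining the libraries of 1 brain, bars at the group means (n = 3) and axes from 0. Atoh8 and Smad1 lie higher in the deep library of each brain, and the other 7 lie higher in the upper library. None of the 9 passed at an adjusted p under 0.05.

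Groups that do not overlap were counted over both ranges of level. Among the 30 tested members, 4 lay entirely higher in ULAs (Tgfb2, Tgfbr2, Msx1 and Acvr2a), where 6.59% of tested rows did. Among the 15 members between 0.1 and 1 RPKM, 3 lay entirely higher in ULAs (Bmp15, Smad9 and Msx2), where 6.41% of the 5925 rows at that level did. In the same range 1 member lay entirely higher in DLAs (Atoh8), where 4.37% did. Among the 16 members under 0.1 RPKM there were 0 in either direction.

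Other genes of the pathway, outside the family itself, were read from 5 lists, of which 37 of 66 genes were tested. Of these, 1 of 8 secreted antagonists and 4 of 6 BMP targets passed. Over all rows tested, 0.714% were called higher in ULAs and 0.914% higher in DLAs. The study had already listed Chrdl1, Id1 and Id3 as layer-enriched in these same libraries. Because the lists were chosen with earlier results known, the counts are not independent of that report. Chrdl1, a secreted BMP antagonist, was at 96.35, 80.32 and 91.84 RPKM in ULAs and 18.68, 17.05 and 24.48 RPKM in DLAs (2.11), and Id1, Id2, Id3 and Id4, inhibitors of helix-loop-helix factors, were higher in DLAs, with differences of −3.21, −1.26, −2.06 and −0.85. The call of Id4 (adjusted p = 0.0339 by limma) was lost under 6 alternatives, among them quantile normalization and the correction for mRNA length, with adjusted p-values over all alternatives from 0.00098 to 0.421. None of 18 intracellular partners, 3 activators and carriers of latent TGF-β and 2 TGF-β targets passed. The median size of the layer difference was 0.09 for the intracellular partners, 0.18 for the 30 members and 0.14 over all rows tested.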

How the data were processed

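RNA of GFP-positive astrocytes from 6 libraries (3 brains, 2 layer samples each) was amplified with a SMART-Seq v4 kit, made into Nextera XT libraries and sequenced. The authors deposited RPKM values for 43383 rows, truncated to 2 decimals, with the mRNA length of each row. The submitters' processing notes name mm9, bcl2fastq 1.8.4 and CASAVA 1.8.2, and the aligner and counting program are not given in the sources used here. The cDNA kit does not mark strand. Depth and reads per row were recovered from the RPKM steps (in rows of up to 500 bases, a whole number of reads gave the printed value exactly, to its 2 decimals, for 99.3% to 100.0% of values, and for at most 95.5% at the next best depth) and served for precision only.

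Rows with a mean of at least 1 RPKM (13999) were compared on log2(RPKM + 1) with limma 3.58.1 in R 4.3.3 (lmFit, eBayes with trend), in a model of layer with brain as a block, with 2-sided tests and Benjamini-Hochberg correction over all rows. A row was called at an adjusted p under 0.05. A fold change on this scale understates the change of low rows. The replicate number was taken as the brain: all 177 rows of the study's supplementary gene lists carry the same 6 values under brain numbers, and same-numbered libraries deviated together (r across rows of 0.422, 0.333 and 0.341, against −0.199 to −0.16 for other pairs). The fit was tested on simulated data.

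Members and lists were chosen with earlier results of these data known. Members named with all values were those that passed, those with a difference of at least 0.5 in 1 direction in all 3 brains, the 12 with the highest mean RPKM and the 2 highest of each role. Other pathway genes were named where they passed, and Chrdl1 and Id1 to Id4 always. Of the 61 members, 15 share exon bases with another row, 7 of them over more than 10% of their length. Promoter windows came from RefSeq (GRCm38.p6) by symbol, and coordinates of rows are those of the table (mm9). Alternatives were a fit without the brain, a pseudocount of 0.1, no minimum, a minimum of 5 RPKM, quantile normalization, median centring, a loess correction for mRNA length, eBayes with no trend, a looser threshold (adjusted p under 0.1) and leaving out each brain in turn. A minimum of 0.1 RPKM with a pseudocount of 0.1 was added after seeing the data. Python 3.11.15 with pandas 2.3.3, numpy 2.4.6 and matplotlib 3.10.9 was used for tables and plots.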

Additional observations from a re-analysis of the deposited data

How the results depend on the processing

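No member passed under any alternative, in either direction, except that 1 (Tgfbr2, higher in ULAs, 0.64) passed without brain 3 (range over the 3 brains left out, 0 to 1), where calls over all rows also rose from 100 and 128 to 431 and 695. For related pathway genes, the 4 higher in DLAs became 2 without the replicate block (Id1 and Id3) and 0 with no minimum, 3 (all but Id4) under quantile normalization, the length correction, eBayes with no trend and the minimum of 0.1 RPKM, and 4 to 5 with 1 brain left out. The 1 higher in ULAs became 0 with no minimum. Over all rows, calls fell from 100 and 128 to 23 and 18 without the block, to 0 and 0 with no minimum, to 65 and 78 after the length correction, to 65 and 79 without the trend, and to 43 and 42 at a minimum of 0.1 RPKM with a pseudocount of 0.1. Quantile normalization changed them to 138 and 103, and median centring to 108 and 118.

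Small member differences changed sign when 1 brain was left out. Over the brains left out, the difference ran from −0.252 to 0.0037 for Bmp1, from −0.2507 to 0.4028 for Bmpr2, from −0.0359 to 0.3261 for Gdf10, from −0.1715 to 0.0114 for Rgma, from −0.1082 to 0.1294 for Smad4 and from −0.1661 to 0.007 for Smurf1. Smad4 also changed sign after the length correction (−0.0161). Without a change of sign, leaving out 1 brain moved Gdf1 between −0.2812 and −0.0197, Bmp7 between 0.1227 and 0.4989, Bmpr1b between 0.0764 and 0.405, Bmpr1a between −0.5127 and −0.1937, Smurf2 between 0.0224 and 0.2892, Acvr2a between 0.1772 and 0.3664 and Smad1 between −0.4464 and −0.227. The length correction lowered Tgfb2 to 0.1993, Bmpr1b to 0.1494, Acvr2a to 0.1679, Inhbb to 0.0712 and Smurf2 to 0.0564. The cause was not tested. Over the named genes, 278 values kept direction and side of the threshold, 11 lost the call (all Chrdl1 or Id genes), 1 gained it and 7 changed sign. The 3 brains gave a median SE of 0.141 per member, which limits the smallest differences that can be called.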
